A study of Mus musculus with 54 samples.

Results

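Of the 11385 TFE3 peaks called in livers of control mice on normal chow, 2013 (17.7%) overlapped no TFE3 peak called in chow livers whose hepatocytes had lost Flcn, and these Control-only peaks are described here. They were chosen from the peak lists alone: a Control peak was taken when no LiFKO peak shared at least 1 bp with it, and the other 9372 Control peaks are called shared. Scores and the absence from the LiFKO list made the selection, so both are given as descriptions without a test. Each list had been called once on pooled libraries, so a peak's presence in a list has no replicate behind it. Control-only peaks were mostly low-scoring, but the 2 highest lay at the promoters of Smarca4, the ATPase of the SWI/SNF chromatin remodeller, and Glyr1, a nucleosome-binding factor, and each had a LiFKO peak within 100 bp. Of the Control-only peaks, 1517 (75.4%) overlapped a TFE3 peak in at least 1 of 4 lists made from livers of mice on the diet labelled FPC.

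TFE3 is a basic helix-loop-helix leucine zipper factor of the MiT/TFE family, which binds E-box sequences such as CACGTG and drives genes of lysosomes, autophagy and lipid catabolism. Folliculin, the product of Flcn, acts with FNIP proteins on the RagC and RagD GTPases so that mTORC1 phosphorylates TFE3 and TFEB and keeps them in the cytoplasm. When folliculin is lost, TFE3 is dephosphorylated and enters the nucleus.

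The mice of every group whose values are given here carried floxed Flcn alleles. Control mice received AAV8 with GFP and LiFKO mice AAV8 with Cre recombinase, both driven by TBG, a promoter active in hepatocytes, so other liver cells keep Flcn. In the chow ChIP-seq, 4 Control and 4 LiFKO TFE3 libraries came from mice fed ad libitum after 1.5e11 genome copies of virus, and their time on diet is not given in the sources used here. In the FPC ChIP-seq, 3 TFE3 libraries per group came from mice fed ad libitum on FPC diet for 9 days: Control and LiFKO (2.5e11 genome copies), and Control+1c and LiFKO+1c, which received 1.5e11 copies of the same viruses plus 1.0e11 copies of AAV8-ApoE/AAT-nSREBP-1c, a virus for the nuclear form of SREBP-1c. RNA-seq covered 3 libraries in each of 5 groups, all given 1.5e11 copies, kept on diet for 17 to 18.5 weeks and fasted for 4 to 6 h: chow Control, chow LiFKO, and Control, LiFKO and DKO on AMLN diet, where DKO mice also had a whole-body Tfe3 deletion and received Cre. The chow RNA-seq mice were thus fasted and the chow ChIP-seq mice were fed. The labels do not state that libraries were separate animals, so p-values measure the spread between these libraries.

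Promoter sequences of 5 genes are shown to give the ground on which the peaks sit: the 2 highest-scoring Control-only peaks (Smarca4 and Glyr1), the gene with the smallest p-value among the high-scoring promoters described below (Mafk), and the 2 largest rises among named genes with a Control-only peak centred within 250 bp upstream (Cyp46a1 and Pdk4). Each is the 250 bases before the start site on the gene's own strand, 5′ to 3′, from RefSeq on GRCm38.p6, with CACGTG in capitals. The peaks are on mm9, so their distances are from the mm9 start site and may be displaced from the printed bases. GRCm38.p6 gene lengths differed from those on mm9 by 112 bp for Cyp46a1, 63 for Smarca4, 32 for Glyr1, -23 for Mafk and -31 for Pdk4. Which gene end differed is not known. Smarca4 is on the plus strand at chr9:21615919-21616168 and its peak centre lay 103 bp upstream, while the nearest LiFKO peak was centred 166 bp downstream. Glyr1 is on the minus strand at chr16:5049911-5050160, and its Control-only peak was centred at -78 bp, close to the motif whose first base is at -103, with the LiFKO centre at -312 bp. Mafk is on the plus strand at chr5:139791286-139791535, with its Control-only centre at -37 bp and the LiFKO centre at 437 bp. By these distances its motif, whose first base is at -208, lies outside the 186 bp of the Control-only peak. Cyp46a1 is on the plus strand at chr12:108334066-108334315, with centres at -240 and -450 bp, and Pdk4 on the minus strand at chr6:5496279-5496528, with centres at -244 and -455 bp. The Control-only peaks of Cyp46a1 and Pdk4 thus ran upstream beyond the printed bases.
Smarca4: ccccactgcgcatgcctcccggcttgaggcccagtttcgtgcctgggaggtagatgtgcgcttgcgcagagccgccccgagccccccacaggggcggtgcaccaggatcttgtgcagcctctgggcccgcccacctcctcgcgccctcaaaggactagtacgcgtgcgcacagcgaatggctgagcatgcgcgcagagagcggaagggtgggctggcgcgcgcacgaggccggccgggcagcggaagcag
Glyr1: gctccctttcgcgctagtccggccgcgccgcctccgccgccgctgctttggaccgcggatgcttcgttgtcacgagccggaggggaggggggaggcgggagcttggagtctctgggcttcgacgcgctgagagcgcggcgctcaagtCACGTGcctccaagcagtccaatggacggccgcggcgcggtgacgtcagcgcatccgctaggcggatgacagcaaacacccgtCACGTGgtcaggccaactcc
Mafk: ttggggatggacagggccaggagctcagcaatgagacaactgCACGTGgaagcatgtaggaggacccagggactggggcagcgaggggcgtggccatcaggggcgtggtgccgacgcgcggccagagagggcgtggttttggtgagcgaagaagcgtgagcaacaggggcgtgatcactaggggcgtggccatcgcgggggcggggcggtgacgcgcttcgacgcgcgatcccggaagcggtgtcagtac
Cyp46a1: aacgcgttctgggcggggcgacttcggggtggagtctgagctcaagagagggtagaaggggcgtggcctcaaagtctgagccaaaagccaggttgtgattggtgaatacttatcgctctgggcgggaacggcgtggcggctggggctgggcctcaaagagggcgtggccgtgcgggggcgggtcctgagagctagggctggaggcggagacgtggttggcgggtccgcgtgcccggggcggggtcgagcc
Pdk4: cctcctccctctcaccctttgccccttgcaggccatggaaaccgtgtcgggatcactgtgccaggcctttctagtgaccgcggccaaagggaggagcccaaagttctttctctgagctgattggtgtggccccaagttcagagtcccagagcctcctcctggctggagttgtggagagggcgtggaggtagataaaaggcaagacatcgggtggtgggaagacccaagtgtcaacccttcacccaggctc

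The authors' HOMER score of a Control-only peak had a median of 9.22, with quartiles at 6 and 14.4 and a range of 3.44 to 62.2. Shared peaks of the same list had a median of 16.2, quartiles at 11.6 and 22.8 and a highest score of 156.3. When the 11385 Control peaks were divided into deciles by score, 683 peaks of the lowest decile (60%) were Control-only, and 50 peaks of the highest (4.4%). The share fell from decile to decile, through 28.8% in the next lowest and 14.7% in the fifth. Below the Control median score of 15.1 lay 1562 Control-only peaks, and 451 lay at or above it.

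**Figure D1:**
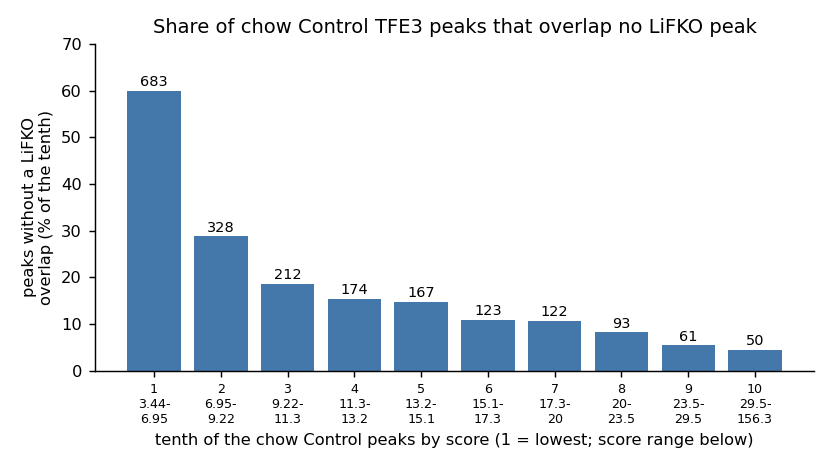
Share of chow Control TFE3 peaks that overlap no chow LiFKO peak (y axis, percent) in each decile of the Control list by score (x axis, score range printed below each bar). Numbers above the bars count the Control-only peaks, which run from 683 in the lowest decile to 50 in the highest.

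Many Control-only peaks had a LiFKO peak close by. The gap to the nearest LiFKO peak had a median of 6557 bp, and all Control peaks were 186 bp wide. A gap of at most 100 bp was found for 309 Control-only peaks (15.4%), of at most 186 bp for 402 (20%) and of at most 1 kb for 596 (29.6%). Of those 596 neighbouring LiFKO peaks, 485 (81.4%) overlapped no Control peak and 111 (18.6%) overlapped another Control peak. Control-only peaks with such a neighbour had a median score of 14.7, against 7.32 for the 1417 farther away. Among shared peaks, which overlap a LiFKO peak by definition, the centres were offset by a median of 16 bp, and 46 of 9372 (0.5%) overlapped by under 20 bp.

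The peaks at the edge of the rule show how small the step from absent to shared can be. A Control-only peak of score 22 at chr19:7131205-7131391, 40 bp inside Macrod1, an ADP-ribosylhydrolase gene, missed its LiFKO neighbour by 1 bp. Another, of score 21.1 in Cpn1, which encodes a carboxypeptidase N subunit, also had a gap of 1 bp. On the other side of the rule, shared peaks with scores of 6.59 in Ralgapa2 and 6, whose nearest measured gene was Slc35b3, overlapped a LiFKO peak by 1 bp. At the far end, a peak of score 10.9 on chromosome 1 had its nearest LiFKO peak 1721255 bp away, and the largest gap on any chromosome was 4566490 bp for a peak of score 3.88 on chromosome 14.

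Location varied with the score. A start site was known for 9914 of the 13815 measured genes (71.8%), so shares near start sites are low. Of the Control-only peaks, 375 (18.6%) had their centre within 1 kb of a start site and 632 (31.4%) within 10 kb, against 23.2% and 36.5% of shared peaks. Among peaks at or above the Control median score, 44.6% of Control-only and 32.9% of shared peaks lay within 1 kb of a start, and below it 11.1% and 10.8%. Control-only peaks within 1 kb of a LiFKO peak were at start sites in 233 of 596 cases (39.1%), and those farther away in 142 of 1417 (10%). A further 788 Control-only peaks (39.1%) were more than 50 kb from any known start. The body of a measured gene held 988 centres (49.1%), against 50.1% of shared peaks. Control-only peaks were spread over the genome: they made up 15.1 to 21.1% of the Control peaks on each autosome and the X chromosome. Only 97 of them lay in runs of neighbours within 5 kb of each other, and no run held more than 3.

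At promoters many Control-only peaks had a LiFKO peak close by. In 191 cases the centre fell between 250 bp before and 50 bp after a start site, and 117 of these had a LiFKO peak within 500 bp, while 74 had none. Because the rule admits no overlap, the centres of such neighbours must lie at least a peak width apart, so their distance is no finding. For those 117, the Control-only centre lay at a median of -96 bp and the LiFKO centre at 110 bp, with a median distance of 246 bp between the centres. The LiFKO centre was downstream of the Control-only centre in 76 and upstream in 41. Only the Control-only centres were held to the window around the start, so these medians and the balance of directions are no finding either. The direction therefore varied from promoter to promoter, as it does between Smarca4 and Glyr1 above.

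The E-box CACGTG was searched on both strands in 300-base promoters, from 250 bases before to 50 after the start. It was present in 32 of 184 promoters with a Control-only peak centred there (17.4%), in 23.3% of 1034 promoters with a shared peak, in 11.8% of all promoters of measured genes and in 8.09% of all 27025 RefSeq promoters. The longer palindrome TCACGTGA, which contains CACGTG, stood in 4.35%, 5.51%, 2.19% and 1.12% of the same sets. CATGTG was found in 10.3% of promoters with a Control-only peak, 13.6% with a shared peak, 10.6% of those of measured genes and 15.9% of all RefSeq promoters. Base composition differed between the sets as well: the 250 bases before the start had a median GC content of 63.4% with a Control-only peak, 61.6% with a shared peak and 52% over all promoters. Its part in the motif shares was not tested.

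The 10 highest-scoring Control-only peaks included promoter peaks at Smarca4, Glyr1 and Rbm25. Others lay inside genes or farther from a start. The peak at Smarca4 (chr9:21420417-21420603) scored 62.2 and ranked 61 among Control peaks, and a LiFKO peak of score 66.5 lay 83 bp away. At Glyr1 (chr16:5049988-5050174) the score was 60.5, and a LiFKO peak of score 65.9 lay 48 bp away. Brd2, which encodes a bromodomain reader of acetylated histones, held an intragenic peak at chr17:34256293-34256479 with a score of 47.6, whose LiFKO neighbour lay 2861 bp away. A peak 27712 bp upstream of Smad6, an inhibitory SMAD of BMP signalling, had a score of 45.6 at chr9:63897485-63897671. Its LiFKO neighbour 76 bp away scored 97.3. Rbm25, a splicing factor gene, had a peak of score 42.9 at chr12:84972983-84973169, and a LiFKO peak lay 7 bp away. Sqstm1, which encodes the autophagy receptor p62, had a peak of score 39.8 at chr11:50026727-50026913, 2491 bp upstream of its start and 85 bp from a LiFKO peak of score 83.8. The body of Mgat4b held this peak. Scores are comparable only within a list, so a neighbour's score is not a measure of gain or loss. Among these named peaks, those at Smarca4, Glyr1, Brd2, Rbm25 and Sqstm1 were found in all 4 FPC lists, where the Smarca4 site stood at the 99.7th percentile of the FPC Control list and the 99.9th of the FPC LiFKO list. The Smad6 site was found in FPC LiFKO+1c but in no other FPC list.

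Presence in the FPC lists was not part of the rule, and those lists come from other libraries. It still varied with the score and with the gap to a LiFKO peak, as given below. Control-only and shared peaks differ in both, so their shares are not independent of the selection. Per the file headers, the FPC Control, Control+1c and LiFKO lists name as target a library called input and as background a library called TFE3, the reverse of the LiFKO+1c list, and whether names or files were exchanged cannot be told from the lists. The 4 lists also differed in length, from 9647 peaks (Control) and 10827 (Control+1c) to 27751 (LiFKO) and 35325 (LiFKO+1c). Of the 2013 Control-only peaks, 721 (35.8%) overlapped the FPC Control list and 626 (31.1%) the Control+1c list. The FPC LiFKO list held 1031 (51.2%) and the LiFKO+1c list 1343 (66.7%). Peaks that no LiFKO peak overlapped on chow were therefore found in the LiFKO lists of the other diet more often than in its Control lists. Shared peaks stood at 37.9%, 33.6%, 77% and 84.1% in the same order. Control-only and shared peaks thus had closer shares in the Control lists than in the LiFKO lists, with no replicate to test it.

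The contrast between Control-only and shared peaks varied with the score. Below the Control median score, 33.8% of Control-only and 27% of shared peaks were in the FPC Control list, and 44.6% and 72.6% in the FPC LiFKO list. At or above the median, the values were 42.8% and 46.4% for FPC Control, and 74.1% and 80.5% for FPC LiFKO. In the highest decile, 92% of the 50 Control-only peaks and 86.9% of shared peaks were in the FPC LiFKO list, and in the lowest decile 32.5% and 64.9%. High-scoring Control-only peaks were thus about as frequent in FPC LiFKO as shared ones, and low-scoring ones were less frequent there.

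**Figure D2:**
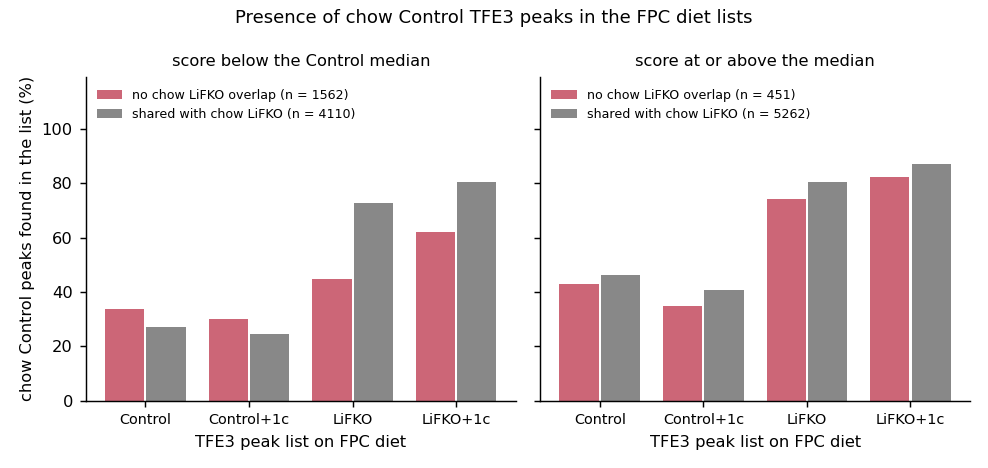
Percent of chow Control TFE3 peaks found in each TFE3 list of the FPC diet (y axis), for peaks without and with a chow LiFKO overlap, below (left) and at or above (right) the Control median score. Below the median the FPC LiFKO bars stand at 44.6% and 72.6%, at or above it at 74.1% and 80.5%.

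Combinations of lists described the Control-only peaks further. None of the 4 FPC lists held 496 of them (24.6%, against 11.6% of shared peaks), and all 4 held 372 (18.5%, against 24.9%). The pattern FPC LiFKO and LiFKO+1c without either Control list applied to 316 (15.7%, against 30.9%), and LiFKO+1c alone to 251 (12.5%, against 9%). The chow pattern recurred, as presence in FPC Control and absence from FPC LiFKO, in 178 Control-only peaks (8.8%) and 146 shared peaks (1.6%). Of those 178, 166 were below the Control median score. A further 1031 of 2013 went against it, being present in the FPC LiFKO list. The HA lists, which map the introduced HA-nSREBP-1c, held 52 Control-only peaks (2.6%), against 7.9% of shared peaks.

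Closeness to a LiFKO peak on chow went along with presence in the FPC LiFKO list. Of the 309 peaks with a gap of 1 to 100 bp, 73.5% were in FPC LiFKO and 82.5% in LiFKO+1c. Of the 159 with a gap over 100000 bp, 33.3% and 53.5% were. For the Control lists no such decline was seen: FPC Control held 39.5% of the nearest class and 42.8% of the farthest. The median score fell over the same classes from 16.1 to 6, and its part in the decline was not tested.

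**Figure D3:**
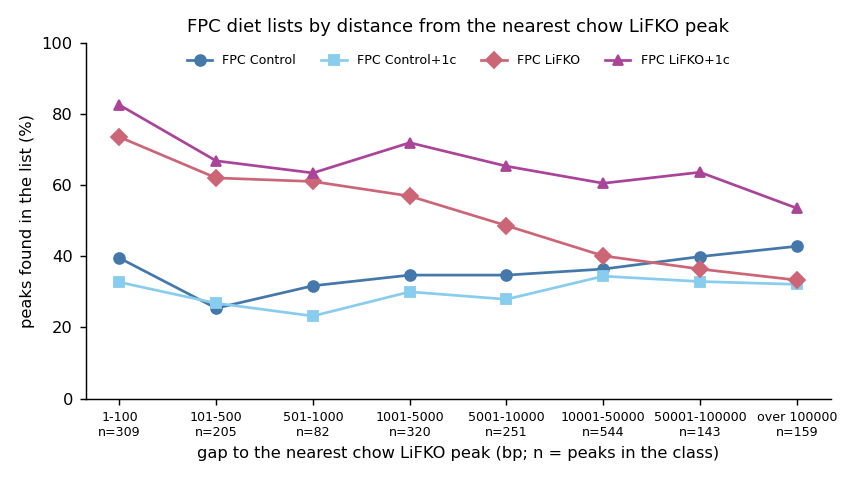
Percent of Control-only peaks found in each FPC list (y axis) by the gap to the nearest chow LiFKO peak (x axis, bp, with the number of peaks in each class). FPC LiFKO runs from 73.5% in the nearest class to 33.3% in the farthest, while FPC Control stays between 25.4% and 42.8%.

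Some high-scoring Control-only peaks were in none of the FPC lists. The Kank2 promoter, of an ankyrin-repeat protein gene, held such a peak with a score of 25.8 and a LiFKO peak 96 bp away. Another lay 112 bp upstream of Caprin1, an RNA-binding protein of stress granules, with a score of 24.2 and a gap of 86 bp. The peak 4366 bp upstream of Tle3, a Groucho-family corepressor gene, had a score of 23.9 and its LiFKO neighbour 11034 bp away. Of these, Caprin1 rose by 0.48 log2 units (SE 0.11, adjusted p = 0.00431, limma) and Tle3 by 0.61 (SE 0.12, adjusted p = 0.00179) in chow LiFKO against Control RNA, while Kank2 differed by -0.14 (adjusted p = 0.453).

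Expression of genes near Control-only peaks was read from the RNA-seq, whose values are the authors' log2 levels after quantile normalization. The deposited values carry no counts, so depth is unknown. All 10 hepatocyte markers were measured, with a median of 17.74 in chow Control and 17.49 in chow LiFKO, and 1 rose and 2 fell. Their summed level was 22.22 to 22.3 in chow Control and 21.36 to 21.81 in chow LiFKO, without overlap. All 5 erythroid markers were measured, and 3 fell: their summed level ranged over 15.26 to 16.41 in chow Control and 14.45 to 15.15 in chow LiFKO. Of the 8 measured Kupffer cell and macrophage markers 1 rose, of 7 endothelial markers 2 rose (summed level 13.57 to 13.94 in chow Control and 13.97 to 14.2 in chow LiFKO), no stellate or cholangiocyte marker passed the test, and 1 of 7 lymphocyte markers was measured. The part of other cell types in the results was not tested, and in bulk liver fewer cells of a type and less RNA per cell cannot be told apart. Flcn itself stood at 11.33, 11.55 and 11.44 in chow Control and at 10.55, 10.14 and 10.53 in chow LiFKO, and fell by 1.03 log2 units (SE 0.17, adjusted p = 0.000394, limma). The Flcn groups did not overlap, and Flcn in other liver cells was not deleted. Tfe3 RNA differed by -0.10 between the chow groups (adjusted p = 0.621).

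The nearest known starts of the 632 Control-only peaks within 10 kb of one belonged to 605 genes, of which 462 (76.4%) also had a chow LiFKO peak within 10 kb of the start, as did 69.7% of all genes with a known start. In chow LiFKO against Control, 101 of the 605 rose and 82 fell (30.2%), where 25.7% of all 13815 genes were called, 12.5% rising and 13.2% falling (limma, adjusted p under 0.05). Of the 9914 genes with a known start, from which the 605 come, 27% were called, 12.8% rising and 14.3% falling. The median log2 difference was -0.03 for the 605 genes and -0.05 over all genes. Genes near shared peaks were called at 32.9% (540 rose and 419 fell of 2911), again by the nearest start. The 190 genes whose start was the nearest to a peak of each kind were called at 39.5%, while 217 of the 605 had any shared peak within 10 kb. The share near Control-only peaks was near that of genes with a known start.

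The 260 genes near a Control-only peak at or above the Control median score included 52 that rose and 42 that fell (36.2%). The 351 near a lower-scoring one included 50 that rose and 40 that fell (25.6%), close to the background. For 143 genes with a Control-only peak and no chow LiFKO peak within 10 kb of the start, 11 rose and 20 fell (21.7%). Expression level moved with these sets: the median chow Control level was 10.57 for the 605 genes, 9.72 for the 143 and 9.78 for all genes, and its part in the shares was not tested. The median chow Control level of the 260 genes was 11.34. Their share of 36.2% lay above the 25.7% of all genes and the 27% of genes with a known start. The 21.7% of the 143 lay below both. None of these differences was tested, and no reading is drawn from them.

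**Figure D4:**
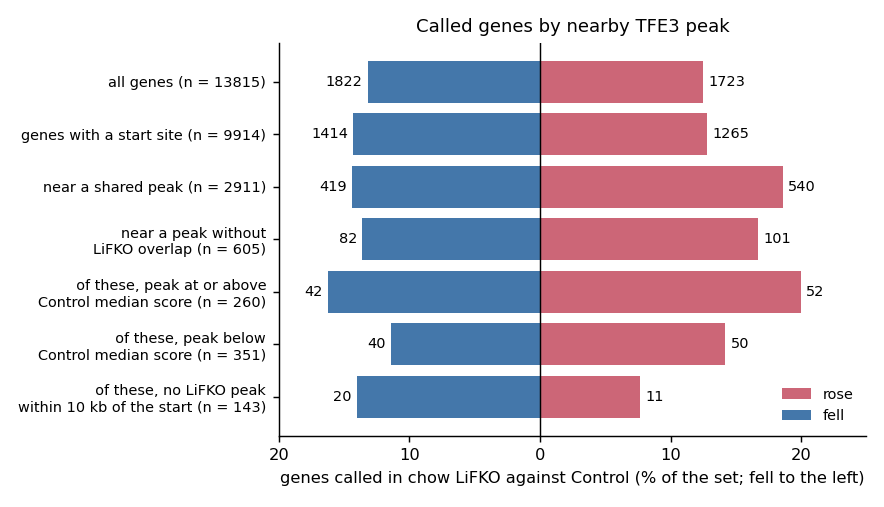
Genes called in chow LiFKO against Control as a percent of each set (x axis, fell to the left and rose to the right, counts at the bar ends), by the kind of TFE3 peak within 10 kb of the start site. Near Control-only peaks 101 rose and 82 fell, and of the 143 genes without a LiFKO peak 11 rose and 20 fell; a gene with both a high-scoring and a low-scoring peak counts in both of those sets.

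Among genes at the highest-scoring Control-only peaks, Smarca4 RNA was at 11.85, 11.95 and 11.87 in chow Control and 12.41, 12.41 and 12.34 in chow LiFKO. The groups did not overlap, and Smarca4 rose by 0.50 (SE 0.09, adjusted p = 0.00128). Glyr1 rose by 0.24 (SE 0.07, adjusted p = 0.0229), a call lost when chow LiFKO 3, chow Control 1 or chow Control 2 was left out, or when the 2 chow groups were fitted alone (adjusted p = 0.0668). Mafk, a small MAF partner of NRF2, was at 9.93, 10.01 and 9.95 in chow Control and 10.92, 10.88 and 10.9 in chow LiFKO. All LiFKO libraries were higher, and Mafk rose by 0.94 (SE 0.10, adjusted p = 8.45e-06). Slc25a39, a mitochondrial carrier for glutathione, rose by 0.42 (adjusted p = 0.00211). Eif5, a translation initiation factor gene, fell by 0.46 (SE 0.12, adjusted p = 0.0121), and leaving out chow LiFKO 2 ended that call. No call was made for Brd2 (0.10), Rbm25 (0.25), Hsp90aa1 (0.25), a cytosolic chaperone gene, Sqstm1 (0.21), Pex10 (-0.44), a peroxisome biogenesis gene, Ell (-0.07), a transcription elongation factor gene, or Stam (0.20), an endosomal sorting gene. Of these, Rbm25 was called when replicate number was blocked within diet (adjusted p = 0.0468), and Hsp90aa1 when chow LiFKO 3 was left out (0.44, adjusted p = 0.0163).

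The 8 largest rises among genes near Control-only peaks are given first. Cyp46a1, a cholesterol 24-hydroxylase, stood at 7.49, 7.99 and 8.08 in chow Control and at 13.53, 13.1 and 13.7 in chow LiFKO, without overlap. It rose by 5.59 (SE 0.54, adjusted p = 5.13e-06), and its peak of score 18.6 lay 24 bp from a LiFKO peak. Tnfrsf25, a death-domain receptor, stood at 5.03, 4.82 and 3.73 in chow Control and at 9.36, 9.32 and 9.85 in chow LiFKO. It rose by 4.99 (SE 0.48, adjusted p = 5.28e-06), with no LiFKO peak within 10 kb of its start and a Control-only peak of score 7.1 lying 7939 bp upstream and in no FPC list.

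Acacb, the acetyl-CoA carboxylase whose product restrains mitochondrial fatty acid uptake, stood at 11.17, 10.38 and 11 in chow Control and at 14.93, 14.86 and 14.78 in chow LiFKO. It rose by 4.01 (SE 0.17, adjusted p = 4.39e-09), and its peak of score 9 lay 18 bp from a LiFKO peak. Cln6, a membrane protein gene of the endoplasmic reticulum that acts in lysosomal enzyme transport, rose by 3.25 (SE 0.22, adjusted p = 2.19e-07) from levels of 8.38, 9.34 and 8.84 to 11.97, 12.06 and 12.28. None of the chow LiFKO libraries of these genes reached down to a Control level. The Cln6 peak scored only 4.76, ranked 11047 among Control peaks, lay 9078 bp inside the gene and was in no FPC list. A shared peak and a LiFKO peak also lay within 10 kb of the Cln6 start. Pdk4, the kinase that switches off pyruvate dehydrogenase, was at 7.05, 7.99 and 7.38 in chow Control and at 10.99, 10.06 and 9.65 in chow LiFKO, and rose by 2.76 (SE 0.62, adjusted p = 0.00461). Il22ra1, an interleukin-22 receptor chain, rose by 2.40 (SE 0.26, adjusted p = 1.54e-05). Csrp3, a muscle LIM protein gene, rose by 1.56 (SE 0.31, adjusted p = 0.00196). Plekha1, a phosphoinositide-binding adaptor gene, rose by 1.53 (SE 0.19, adjusted p = 4.4e-05). As at Cln6, a shared peak lay within 10 kb of the starts of Cyp46a1, Acacb, Pdk4 and Csrp3. The starts of Tnfrsf25, Il22ra1 and Plekha1 had no shared peak within 10 kb.

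The largest falls were smaller than the largest rises. Tnfrsf19, a TNF receptor family member of Wnt-responsive cells, was at 8.98, 9.03 and 8.8 in chow Control and at 6.43, 6.12 and 6.46 in chow LiFKO. It fell by 2.6 (SE 0.28, adjusted p = 1.43e-05) without overlap, and its peak, of score 7.47 and 635 bp inside the gene, was in no FPC list and 3565 bp from a LiFKO peak. Nt5e, the ectonucleotidase CD73, fell by 2.02 (SE 0.59, adjusted p = 0.0209), but the call was lost when chow LiFKO 2, chow LiFKO 3 or chow Control 3 was left out. The Nt5e peak scored only 4.32 and was in no FPC list. Falls were also called for Aatk, an apoptosis-associated kinase gene (-1.77, SE 0.30), Dapk2, a death-associated kinase gene (-1.53, SE 0.24), Map2k6, a p38 MAP kinase kinase gene (-1.5, SE 0.38), and Crlf2, a cytokine receptor gene (-1.34, SE 0.20). Their adjusted p-values were 0.000653, 0.000299, 0.00927 and 0.000221. Ces1b, a carboxylesterase gene, fell by 1.23 (adjusted p = 0.000545). Klhdc7a, whose peak of score 22.1 lay 123 bp upstream, was at 11.67, 11.75 and 11.91 in chow Control and at 10.68, 10.27 and 10.93 in chow LiFKO, and fell by 1.15 (SE 0.18, adjusted p = 0.000261). No LiFKO peak lay within 10 kb of the starts of Nt5e, Aatk and Crlf2. Read by gene body, Nt5e and Aatk did have a LiFKO peak within 10 kb, and Nt5e also a shared peak. The Crlf2 peak was 366010 bp from the nearest LiFKO peak. Among these falls, a shared peak lay within 10 kb of the starts of Dapk2 and Ces1b.

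**Figure D5:**
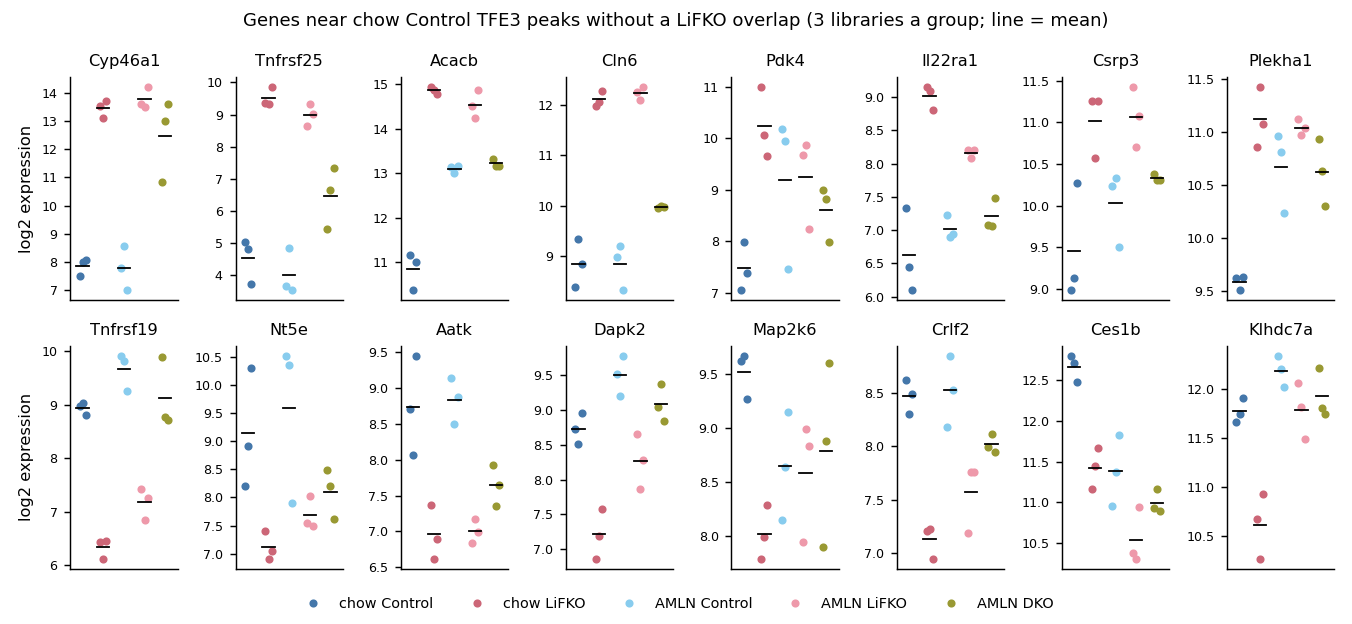
Log2 expression (y axis) in each of the 15 RNA-seq libraries for 8 genes near a Control-only peak that rose (upper row) and 8 that fell (lower row) in chow LiFKO against Control, with 3 points and a mean line per group. Cyp46a1 runs from 7.49 to 8.08 in chow Control and from 13.1 to 13.7 in chow LiFKO, and Tnfrsf19 from 8.8 to 9.03 and from 6.12 to 6.46.

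Gene lists for liver and TFE3 biology were read for genes whose body lay within 10 kb of a Control-only peak, as it did for 11.7% of all measured genes, and the share called over all genes was 25.7%. Of 42 measured entries of lysosomal hydrolase and cofactor genes, 5 had such a peak and 3 of these rose, among them the arylsulfatase genes Arsa (0.84, adjusted p = 0.000472) and Arsb (0.84, adjusted p = 1.62e-05). Of 31 entries of V-ATPase and lysosomal membrane genes, 5 had one and 3 rose, among them Cln6 and the proton pump subunit gene Atp6v1b2 (0.80, adjusted p = 4.25e-05). In these 2 lists 26 of 42 and 26 of 31 entries rose in all, with or without a Control-only peak. The lists named 41 and 30 genes, so a gene can count under 2 identifiers. Of 31 autophagy genes 2 had one, Atg13 and Sqstm1, and 1 of them fell. Of 34 genes of the folliculin, Rag and mTORC1 circuit 6 had one, and 1 rose. Over the whole lists, 10 autophagy genes rose and 6 fell, and 7 circuit genes rose and 2 fell.

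Among lipid genes, 7 of 21 lipogenesis genes had a Control-only peak, of which Acacb rose and Srebf1, the gene of SREBP-1, fell by 0.63 (SE 0.18, adjusted p = 0.0211). The Srebf1 call was lost without chow LiFKO 1, chow LiFKO 2 or chow Control 1, without which the difference was -0.37, and with the 2 chow groups alone (adjusted p = 0.0569). Lpin1, a phosphatidate phosphatase gene, differed by 0.77 (adjusted p = 0.302), but was called with the 2 chow groups alone (adjusted p = 0.00237). Of 30 genes of fatty acid oxidation 9 had one, and 3 rose, including Pdk4 and Cpt1a, the carnitine palmitoyltransferase of mitochondrial fatty acid import (0.78, SE 0.15, adjusted p = 0.00191). Of 23 cholesterol genes 1 had one, and of 19 bile acid genes 2, and none of these passed the test. Of 22 genes of glucose metabolism 5 had one, and Pcx, the pyruvate carboxylase gene, rose (0.55, adjusted p = 0.00428). Over the whole lists, with or without a Control-only peak, 14 of the 30 fatty acid oxidation genes rose and none fell. Of the lipogenesis genes 4 rose and 5 fell, and of the cholesterol genes 1 rose and 10 fell. Of the bile acid genes 2 rose and 7 fell, and of the glucose genes 2 rose and 3 fell.

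Clock genes carried Control-only peaks at 9 of 18 measured list members, where 11.7% of all measured genes did, and the difference was not tested. Read by the nearest start within 10 kb, 4 of the 18 had one. All 18 also had a chow LiFKO peak within 10 kb of the gene body. Of the 9, none rose and 2 fell, Dbp and Nr1d1, where 1 of all 18 rose and 4 fell. Dbp, a clock output factor gene, was at 12.59, 12.6 and 12.53 in chow Control and 11.38, 10.7 and 12.38 in chow LiFKO, and fell by 1.08 (SE 0.28, adjusted p = 0.0106). The difference was -0.69 without chow LiFKO 2, and the call was lost with the 2 chow groups alone (adjusted p = 0.0508). Nr1d1, the REV-ERBα repressor gene, fell by 1.31 (SE 0.42, adjusted p = 0.0326) with overlapping groups, from 10.76, 11.34 and 12.04 to 9.99, 8.99 and 11.21. Its call was lost without chow LiFKO 1, chow LiFKO 2, chow Control 2 or chow Control 3, with -0.78 as the smallest difference (without chow LiFKO 2), and under 2 other fits (adjusted p = 0.054 without an intensity trend and 0.1 with the 2 chow groups alone). The time of day of collection was not examined. Of 27 stress genes 6 had a Control-only peak and 2 rose, among them Hmox1, haem oxygenase 1 (1.80, adjusted p = 3.5e-05). Of 21 immediate early genes 4 had one, and Klf6 rose (1.31, adjusted p = 7.1e-05). Of 20 hepatocyte transcription factor genes 4 had one and of 20 E-box factor genes 2, and none of these passed the test. Over the whole lists, 4 stress genes rose and 3 fell, and 3 immediate early genes rose and none fell. Of the hepatocyte factor genes 1 rose and 4 fell, and of the E-box factor genes 4 rose and 6 fell.

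On AMLN diet, 73 of the 605 genes rose and 72 fell in LiFKO against Control (24%), against a background of 19.7% (20.6% of genes with a known start), with 10.1% of all genes rising and 9.63% falling. Cyp46a1 rose by 5.98, Tnfrsf25 by 4.98, Cln6 by 3.39 and Wdr91, an endosomal regulator gene, by 2.41, with adjusted p-values of 4.7e-06, 8.69e-06, 3.28e-07 and 9.69e-07. Pnpla3, a lipid droplet hydrolase gene induced by SREBP-1c, was at 8.2, 7.55 and 9.58 in AMLN Control and 4.98, 3.81 and 5.68 in AMLN LiFKO, and fell by 3.62 (SE 0.70, adjusted p = 0.00209). Falls were also called for Tnfrsf19 (-2.48, adjusted p = 3.21e-05), Treh, the trehalase gene (-2.37, adjusted p = 0.0049), and Srebf1 (-1.35, adjusted p = 0.000158). The glutathione transferase genes Gstm1 and Gstm2, close paralogs that can share reads, fell, with differences of -2.47 (adjusted p = 0.000192) and -2.18 (adjusted p = 0.0147). The Gstm2 call was lost without AMLN LiFKO 2, AMLN Control 1 or AMLN Control 2, and with the 2 groups alone (adjusted p = 0.0518). Flcn fell by 0.57 on AMLN diet (adjusted p = 0.0257), a call lost in 4 of 6 fits that left out 1 library (AMLN LiFKO 1, AMLN LiFKO 3, AMLN Control 1 or AMLN Control 3).

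The libraries labelled DKO were compared with AMLN LiFKO. DKO mice lacked Tfe3 in every tissue (Tfe3 -/Y), so Tfe3 loss in hepatocytes and in other cells cannot be told apart. Tfe3 RNA was 10.2, 9.88 and 9.89 in the libraries labelled DKO and 9.92, 10.02 and 10.07 in AMLN LiFKO, so the RNA level over the whole gene does not check the deletion. Flcn differed as well: it stood at 10.25, 10.56 and 10.43 in AMLN LiFKO and at 9.12, 9.45 and 9.91 in the libraries labelled DKO, without overlap, and fell by 0.92 (SE 0.17, adjusted p = 0.00242). The groups thus differed in Flcn level besides the labelled Tfe3 deletion, and the part of each cannot be told apart. In DKO against LiFKO, 38 of the 605 genes rose and 48 fell (14.2%), against a background of 11% (11.5% of genes with a known start), with 5.05% of all genes rising and 5.97% falling. Without AMLN DKO 1, 28 rose and 45 fell, without AMLN DKO 2, 15 and 40, and without AMLN DKO 3, 24 and 42. Without AMLN LiFKO 1, 2 or 3 the rises numbered 20, 18 and 19 and the falls 38, 39 and 38. Falls thus outnumbered rises in the main fit and in each of these fits, while the size of the imbalance moved with the library left out. This comparison shares the AMLN LiFKO libraries with the previous one, so opposite signs are no independent evidence. Cln6 was at 12.26, 12.09 and 12.35 in AMLN LiFKO and at 9.96, 9.99 and 9.98 in the libraries labelled DKO, and fell by 2.26 (SE 0.22, adjusted p = 2.05e-05). Tnfrsf25 (-2.53, adjusted p = 0.00351) and Wdr91 (-1.71, adjusted p = 3.3e-05) fell too. Cyp46a1, the largest rise in AMLN LiFKO, was at 13.59, 13.51 and 14.2 there and at 10.84, 12.99 and 13.59 in the libraries labelled DKO, with overlap, and was not called (-1.29, SE 0.54, adjusted p = 0.145), but was without AMLN DKO 3 (-1.85, adjusted p = 0.0442). Pnpla3 (1.79, adjusted p = 0.12) and Treh (1.23, adjusted p = 0.154) were not called either, though both were with replicate number blocked within diet (adjusted p = 0.041 and 0.00892), and Treh also without AMLN DKO 3 (1.79, adjusted p = 0.043). Tnfrsf19 rose by 1.95 (SE 0.28, adjusted p = 0.000485), from 7.43, 6.85 and 7.25 to 9.89, 8.77 and 8.72, and Srebf1 rose by 1.19 (adjusted p = 0.000842). Mafk (-0.74, adjusted p = 0.000182) and Acacb (-1.31, adjusted p = 0.000243) fell. Less stable calls were Gstm2 (1.89, adjusted p = 0.0471, lost without any 1 of the 6 libraries, with the replicate block and without an intensity trend), Gstm1 (1.43, lost without AMLN DKO 1 or 2 or AMLN LiFKO 1 or 2), Car5b, a mitochondrial carbonic anhydrase gene (1.37, in fits leaving out 1 library kept only without AMLN LiFKO 1), and Micall2 (-1.44, lost without AMLN DKO 3 or AMLN LiFKO 1 or 2, and with the 2 groups alone). The Car5b peak scored 3.44, the lowest score of the Control list.

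Diet was compared in Control livers as well: 72 of the 605 rose and 70 fell on AMLN diet against chow (23.5%), against a background of 22.8%, with 11.2% of all genes rising and 11.6% falling, and a share of 23.9% among genes with a known start. Without chow Control 2, 55 rose and 39 fell, and without chow Control 1, 55 rose and 44 fell. This comparison shares its Control libraries with both LiFKO comparisons. The size of the LiFKO effect differed between the diets for 6 of the 605 genes, against 1.04% of all genes, and the count ran from 1 to 24 when single libraries were left out (24 without AMLN Control 3).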

How the data were processed

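TFE3 ChIP-seq peak lists and liver RNA-seq from mice were used, with groups taken from the labels. Peak lists were deposited by the authors with the HOMER score of pooled libraries, per the file headers, and list peaks found both over input and over a TFE3 ChIP of Tfe3 knockout liver. Per the submitters' processing notes, reads were trimmed with Trimmomatic (0.32 for chow, 0.36 for FPC), aligned to mm9 with Bowtie2 (2.2.8 and 2.2.6) and processed with SAMtools, bedtools and HOMER (4.11 and 4.4). The 2 diets were thus processed with different versions, and the ChIP-seq depth is not given in the sources used here. Other columns of the deposited lists were not used. For RNA-seq, the authors' deposited table holds log2 levels of 13815 genes. The 15 libraries were made into values with bcl2fastq 2.17, Trimmomatic 0.32, STAR 2.6.0c, featureCounts and limma on mm9, per the submitters' processing notes. The highest log2 value was 21.47 in every library and the medians were 9.79 to 9.8, so the values had been quantile normalized before deposit, and no counts were given. A count test had been foreseen, and because the deposited values were log2 the branch for such values was used.

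Intervals were compared at a minimum overlap of 1 bp with Python 3.11.15, numpy 2.4.6 and pandas 2.3.3. Each percent is a share of deposited peaks or of measured genes, calculated here. Start sites combined the mm9 gene positions of the deposited table with strand from the RefSeq promoter table of GRCm38.p6, which was matched for 9670 genes by gene ID and 244 by symbol. On chromosome 18 only 1 gene had a start site. Promoter motifs were counted in the same RefSeq table.

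Expression was fitted with limma 3.58.1 in R 4.3.3, as 1 mean for each of the groups, using all 15 libraries with 10 degrees of freedom left for the spread, and eBayes with trend. SE is moderated, p-values are two-sided, and a call is an adjusted p (Benjamini-Hochberg, over all 13815 genes) under 0.05. There were 4 comparisons of groups, plus a contrast for the diet dependence of the LiFKO effect. The fit was checked on simulated data.

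The Control-only peaks, gene lists and tests were chosen with earlier results of these data known. Peaks were named as the highest-scoring Control-only peaks, the highest in no FPC list, and those nearest to or farthest from the edge of the rule. Genes were named at those peaks, as the largest called changes within 10 kb of a Control-only peak, and from the lists. Reading list genes by gene body, in place of start site, was chosen after seeing the data, as was blocking within diet. Genes with an entry under 2 identifiers and peaks far from genes of known strand were not described singly. A result for 1 gene is not reported here.

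Same-numbered chow Control and chow LiFKO libraries deviated together, with correlations of 0.113, 0.17 and 0.237 between their residuals, against -0.188 to 0.043 for other pairs. The labels do not say what the numbers share. For AMLN Control and LiFKO the same-number correlations were mixed, at -0.039, 0.16 and 0.231, against -0.238 to 0.11 for other pairs. For AMLN Control and DKO, which were not compared here, they were 0.045, 0.099 and 0.144, against -0.123 to 0.066. For AMLN LiFKO and DKO no pairing was seen, with -0.085, -0.079 and -0.055 against -0.072 to 0.148. The main fit had no block.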

Additional observations from a re-analysis of the deposited data

Results flagged for a closer look

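The LiFKO effect on Acacb, whose Control-only peak lies 7064 bp upstream, differed between diets: the rise on AMLN diet was 1.43 log2 units and that on chow 4.01, a difference of -2.58 (SE 0.25, adjusted p = 0.000196, limma interaction contrast). AMLN Control libraries stood at 13.14, 13.0 and 13.16, above the chow Control range of 10.38 to 11.17, while the LiFKO libraries of the diets overlapped. The difference ran from -2.74 to -2.34 with each of 12 libraries left out and was called each time. Mafk differed in the same direction, by -0.6 (SE 0.14, adjusted p = 0.0499), and lost its call without 11 of the 12 libraries in turn, with the replicate block (adjusted p = 0.058), with the block within diet (0.0507) and without an intensity trend (0.082). Of the 605 genes near Control-only peaks, 6 were called for this difference (0.992%), where 1.04% of all genes were.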

How the results depend on the processing

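The set and its shares moved with the peak rules. Of Control peaks at or above the Control median score, 451 were Control-only, and against LiFKO peaks at or above their median 3919 were. Presence in FPC Control, Control+1c, LiFKO and LiFKO+1c became 32.2%, 26.8%, 43% and 57.3% at an overlap of at least 50 percent of the peak, 39.5%, 34.5%, 57.4% and 72.6% within 500 bp, and 20.9%, 20.9%, 28.5% and 39.7% with FPC peaks at or above their median. For members at or above the members' median score, FPC LiFKO and LiFKO+1c became 66.3% and 77.1%, and with no LiFKO peak within 1 kb 44.2% and 63.4%. The share near a start became 24.4% within 5 kb, 32.7% for members at or above the members' median score and 10% with no LiFKO peak within 1 kb.

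Called genes followed the size of the gene set. The sets held 1089 genes within 50 kb and 325 with no LiFKO peak within 1 kb of the member. A further 2 sets held 143 genes with none within 10 kb of the start and 1616 by gene body. On chow, 320, 92, 31 and 464 of these were called (29.4%, 28.3%, 21.7% and 28.7%), where 25.7% of all genes were. With 1 library left out, 143 to 167 of the 605 were called. The shares over all genes given here are those of the main fit. On AMLN diet the same sets gave 262, 80, 27 and 370 (24.1%, 24.6%, 18.9% and 22.9%), where 19.7% of all genes were called. There were 92 of 370 within 1 kb (24.9%), and 112 to 125 of the 605 with 1 library left out. For DKO against LiFKO they gave 147, 49, 14 and 206 (13.5%, 15.1%, 9.79% and 12.7%, against 11% of all genes). There were 55 within 1 kb (14.9%), and 55 to 73 of the 605 with 1 library left out. For AMLN against chow in Control they gave 260, 71, 25 and 407 (23.9%, 21.8%, 17.5% and 25.2%, against 22.8% of all genes). With 1 library left out, 94 to 155 of the 605 were called. The diet difference gave 3 genes without trend, 11 with the 4 groups alone and 1 to 24 with 1 library left out (24 without AMLN Control 3). With the replicate block the counts were 187, 140, 80 and 145, and with the block within diet 195, 153 and 90, where the diet difference gave 17. No alternative reversed a named gene: 774 of their values stayed on the same side of the threshold, called or not, 66 lost a call and 7 gained one. With the 2 AMLN groups alone, 64 genes rose and 45 fell in LiFKO against Control. DESeq2 was not run, as there are no counts.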
